A study of Mus musculus with 16 samples.

Results

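The effect of Neurog3 loss shared by the proximal and the distal small intestine was measured in 8 mice, each of which gave a duodenal and an ileal RNA library. For every gene the log2 of its library-scaled counts (counts per 1e6, log2 CPM) of an animal's 2 libraries was averaged, and the 4 mutant animals were compared with the 4 controls. All 16 libraries of the series entered, as 8 animal means, and 15882 genes were tested.

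The mice were adult males of the C57BL/6N strain on standard diet. Mutants were Neurog3f/f; Villin-CreERT2 (animals NFVCT27, NFVCT38, NFVCT153 and NFVCT190), in which a tamoxifen-activated recombinase is driven by the Villin promoter of the intestinal epithelium. Controls were Neurog3f/f without that transgene (NF17, NF29, NF32 and NF152), so both genotypes carried the floxed allele. Tissue was collected 18 weeks after tamoxifen, and the labels do not state separately whether controls received it. An effect of the transgene and an effect of Neurog3 loss cannot be told apart in this design, and the part and layers of each tissue taken are not described.

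Neurog3 is the transcription factor that commits a dividing progenitor of the gut epithelium to the enteroendocrine fate. Enteroendocrine cells are rare, scattered cells that release peptide hormones and serotonin in response to the contents of the gut. Different hormones prevail at different positions: Gip, Cck and Ghrl are known mainly from the proximal and Gcg, Nts and Pyy mainly from the distal small intestine. An average over both tissues weighs the segments equally; a change called on it may be shared by both or come from one alone, so the tissue values stand beside it.

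Library depth ran from 8213889 to 35076714 counts. The tissue labels matched their markers: over the controls, the 8 distal genes had a mean log2 CPM of 6.58 in the ileum and 0.66 in the duodenum, and the 8 proximal genes 5.12 and 7.79. Pancreatic acinar genes took 7.19% to 16.1% of the counts in the control duodena and 1.97% to 20.4% in the mutant duodena, against at most 0.903% in any ileum. Mutants NFVCT27 and NFVCT190 had the high shares (12.9% and 20.4%) and NFVCT38 and NFVCT153 the low ones (1.97% and 2.29%). The mean level of the 14 smooth muscle genes was 6.72 ± 0.20 log2 CPM (SD, n = 4) in the animal means of controls and 7.22 ± 0.32 (n = 4) in mutants, with ranges of 6.46 to 6.88 and 6.81 to 7.56 that overlap (two-sided exact permutation test, p = 0.0857; the smallest p that 4 against 4 animals allow is 0.0286). In the ileum alone the smooth muscle level was 7.25 in controls and 7.88 in mutants without overlap (exact permutation p = 0.0286), and in the duodenum it was 6.19 and 6.57 with overlap (exact permutation p = 0.343). Of the 14 genes, 9 were called in the ileum, where 3.19% of all genes were called, and none in the duodenum or on the average. Leaving out 1 animal gave 0 to 8 calls higher on the average, and leaving out NF17 and NFVCT190 together gave 7. The part of muscle or pancreas in the results was not tested, but the calls were recomputed with the smooth muscle level as a covariate, and the resulting counts are given with the gene groups. A covariate that itself differs between the genotypes, fitted on 8 animals, can widen standard errors. Fewer calls with it need not mean smaller changes.

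**Figure D1:**
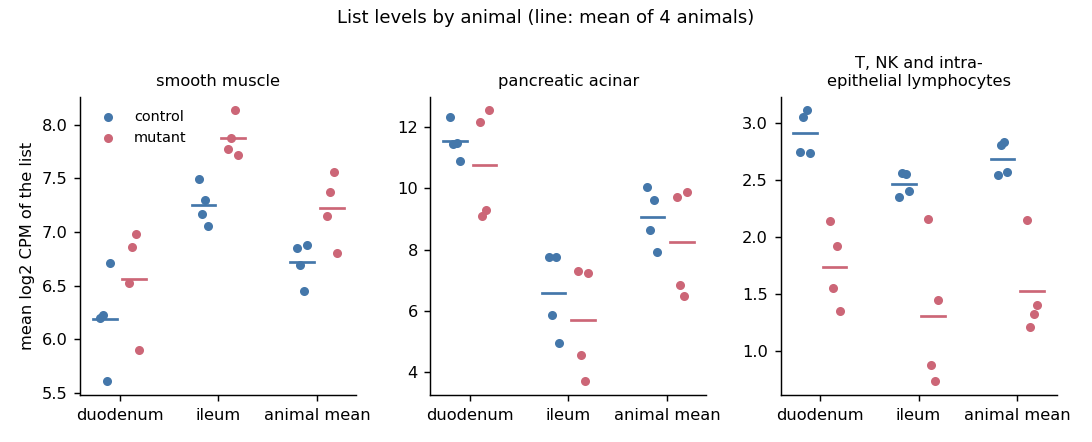
Mean log2 CPM (vertical axis) of the smooth muscle, pancreatic acinar and lymphocyte lists in each animal, for the duodenum, the ileum and their animal mean; points are animals and lines are means of 4. Smooth muscle genes sit higher in all 4 mutant ilea than in the control ilea, acinar genes split the mutant duodena into a high and a low pair, and lymphocyte genes are lower in every mutant animal mean (1.21 to 2.15) than in every control (2.54 to 2.83).

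Neurog3 had 0 counts in all 8 mutant libraries and 8 to 37 in each control library, 169 in all. Measured against a floor of 3 counts over the 8 mutant libraries, Neurog3 was at least 55.8-fold lower over both tissues, a bound that becomes 36.4-fold without NFVCT153, whose duodenal library is the deepest. The targeted gene thus matched the genotype label in every library.

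On the animal means, 494 genes were called at an adjusted p under 0.05, which is 3.11% of those tested. Of these, 196 were higher in mutants (1.23% of all genes) and 298 lower (1.88%). The median change of the called genes was 0.59 on the log2 scale for those higher and -0.94 for those lower, beside 0.01 over all genes, and 29 rose and 131 fell by 2-fold or more. The animal means of the groups did not overlap for 193 of the genes called higher and 292 of those called lower. The calls were made on these same means, which favours that, and the share over all genes is not given. Without the trend of variance on expression, a choice added after seeing the data, 89 genes were called higher and 190 lower. A fit of the single libraries that keeps the animal as a replicate block (limma-voom) called 323 higher and 343 lower, 425 of them among the 494. Its consensus correlation of the libraries of an animal was 0.104, so it takes them as nearly independent. Genotype is compared between animals in it, without pairing.

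Most of these changes had the same direction in both tissues. The sign was the same in the duodenum and the ileum for 193 of the 196 genes called higher and 294 of the 298 called lower, which the averaging itself favours. The 2 tissue effects had the same sign and lay within a factor of 1.5 of each other for 378 of the 494. Small changes meet that limit easily, even when 1 tissue has little effect. Of the called genes, 167 of those higher and 167 of those lower changed by less than 2-fold. The share over all genes was not computed. A stricter pattern, no overlap of the 4 mutant and 4 control libraries in either tissue, was met by 61 of the genes called higher and 130 of those called lower. Over all genes tested it was met upward in both tissues by 0.63% and downward in both by 0.919%.

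The test within a single tissue called fewer genes in the duodenum and about as many in the ileum. In the duodenum 62 genes were called (0.39%) and in the ileum 506 (3.19%), by the same method and scaling. The median standard error over all genes was 0.131 for the average, 0.183 in the duodenum and 0.167 in the ileum. Of the 494 genes, 35 were called in both tissues, 17 in the duodenum alone and 213 in the ileum alone. The remaining 229 (79 higher, 150 lower) were called in neither tissue and passed the test on the animal means. Conversely, 258 genes of the ileum and 10 of the duodenum were not called on the average.

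**Figure D2:**
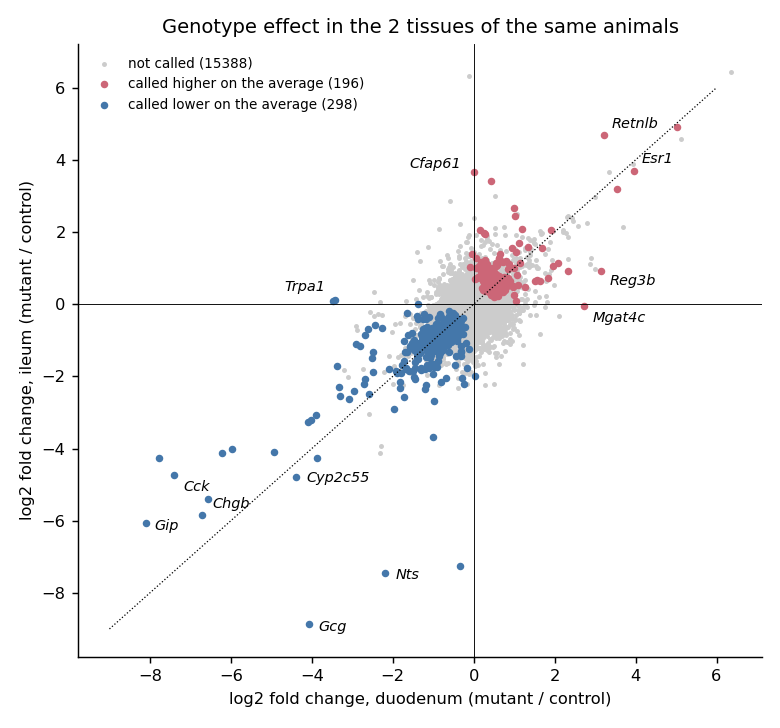
Log2 fold change of mutants against controls in the duodenum (horizontal axis) and in the ileum (vertical axis) for each of 15882 genes; coloured points were called on the average and the dotted line marks equal effects. Most coloured points lie in the quadrants of equal sign, Esr1 lies on the line, Nts and Gcg fell further in the ileum, and Trpa1, Mgat4c and Cfap61 lie near 0 in one tissue.

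The largest losses on the average were those of enteroendocrine genes, and not all were called in both tissues. Of the 10 hormone genes tested, 9 were called lower (Gip, Gcg, Cck, Ghrl, Nts, Pyy, Sct, Sst and Tac1) and none higher, with a list median of -4.31 on the log2 scale. With genes of 3 or fewer mutant counts in a tissue set at their bound or counted ratio, the median was -5.05. All 9 kept their calls when any single animal was left out, and 7 of them with the smooth muscle level as a covariate. Within the tissues, 6 of the 10 were called in the duodenum (list median -2.5) and 9 in the ileum (-4.4). Pyy, Gcg and Nts were not called in the duodenum. Since whole tissue was sequenced, fewer cells of a type and less RNA per cell cannot be told apart in these and the following values. The counts of this and the later lists stand against 1.23% called higher and 1.88% called lower over all genes. A single call therefore says little about a list.

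Chgb, which encodes the granule protein chromogranin B, had the smallest p of all genes. Its animal means were 7.44, 7.17, 6.91 and 7.53 log2 CPM in NF17, NF29, NF32 and NF152, and 0.86, 1.21, 0.92 and 0.95 in NFVCT27, NFVCT38, NFVCT153 and NFVCT190. The 2 groups lie far apart, and the fall was 6.72 in the duodenum and 5.84 in the ileum on the log2 scale (average -6.28, SE 0.13, adjusted p = 5.45e-12). Chga, the related chromogranin A, fell by 4.06 (SE 0.37, adjusted p = 0.00326). Its change was -3.88 (SE 0.65) in the duodenum, where it was not called (adjusted p = 0.0852), and -4.25 (SE 0.20) in the ileum. Its mutant duodena had 4.79, 7.81, 1.42 and 14.1 CPM in the order of animals above, against 67.0 to 98.4 CPM in controls. Of the 12 granin and processing genes, 3 were called lower (Chga, Chgb and the calcium sensor Scgn), and 1 with the smooth muscle covariate. Scgn fell by 0.88 (adjusted p = 0.0325) and lost its call without NF17, NF32, NF152, NFVCT38, NFVCT153 or NFVCT190 (adjusted p up to 0.115). The list had 5 calls in the fit with the replicate block and 2 on counts summed per animal.

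The incretin gene Gip is made by K cells. In the duodenum its controls had 55.5, 59.8, 51.7 and 65.3 CPM and its mutants 0.084, 0.0583, 0.261 and 0 CPM, in the order of animals above. In the ileum controls had 11.4, 4.29, 7.26 and 14 CPM, and all 4 mutants had 0 counts, which puts ileal Gip at least 183-fold lower against the floor of 3 counts over 4 libraries (117-fold without NFVCT190). Gip was called on the average at an adjusted p of 1.19e-09. Cck, the gallbladder-contracting hormone of I cells, had 30.5 to 46.2 CPM in control and 0 to 0.464 CPM in mutant duodena, and a single count over the mutant ilea (average adjusted p = 4.98e-07).

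Gcg, the proglucagon gene from which L cells make GLP-1, was lost most completely in the ileum. Control ilea had 79.9, 56.7, 56.3 and 70.2 CPM, while the 4 mutant ilea held 1 Gcg count together, 0.0276% of the control level (exact binomial 95% interval 0.000698% to 0.154%). In the duodenum controls ranged from 9.12 to 11.8 CPM and mutants were 0.084, 2.21, 0 and 2.54 CPM, so NFVCT38 and NFVCT190 kept a measurable level. Gcg is also a gene of pancreatic islets, and the mean level of the 4 islet genes in the mutant duodena was 2.09, 3.14, -2.53 and 3.67 log2 CPM in the same order, with Iapp, the amylin gene of islets, at 2.52, 4.78, 0.029 and 5.19 CPM. The highest islet levels were thus in the same 2 animals; the part of islet tissue in the residual Gcg was not tested. Gcg was called on the average (adjusted p = 0.00227) but not in the duodenum alone (adjusted p = 0.253). Pyy, the other peptide of L cells, had 0 counts in the mutant ilea against 1506 in controls, at least 355-fold lower (227-fold without NFVCT190), and a duodenal log2 change of -0.35 (adjusted p = 0.972). Its mutant duodena had 0.588, 1.63, 0.029 and 2.21 CPM, again highest in NFVCT38 and NFVCT190.

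Sst, Sct and Tac1 fell in both tissues but were not lost. Sst, the inhibitory peptide somatostatin of D cells, had animal means of 4.49, 4.24, 4.08 and 4.40 log2 CPM in controls and 2.24, 2.24, 2.10 and 2.66 in mutants. Its fall was 2.51 in the duodenum and 1.48 in the ileum (average -1.99, SE 0.14, adjusted p = 2.56e-06). Sct, secretin, fell by 2.17 on average (SE 0.16, adjusted p = 2.98e-06), from animal means of 3.87 to 4.52 in controls to 1.88 to 2.37 in mutants. Tac1, the precursor of substance P, which enteric neurons also make, fell by 1.91 (SE 0.20, adjusted p = 0.000233). The enteric neuron list of 14 genes, which does not hold Tac1, had 1 call, Npy (-1.71, SE 0.28, adjusted p = 0.00684), and its mean level was 1.72 in controls and 1.81 in mutants (exact permutation p = 0.371). Cartpt was the hormone gene that was not called (-0.51, SE 0.28, adjusted p = 0.42).

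The transcript of the first enzyme of serotonin synthesis fell steeply, and 3 of 8 serotonin and enterochromaffin genes were called lower (2 with the smooth muscle covariate). Tph1, the rate-limiting hydroxylase of enterochromaffin cells, had animal means of 3.85, 4.15, 3.48 and 4.09 log2 CPM in controls and -2.60, -1.85, -2.37 and -1.54 in mutants. The change was -5.98 (SE 0.25, adjusted p = 1.53e-08), with -6.57 in the duodenum and -5.39 in the ileum. Ddc, the decarboxylase of the next step, is also expressed by enterocytes, and it fell by 0.67 (SE 0.12, adjusted p = 0.00901) from 6.90 to 7.36 log2 CPM in controls to 6.26 to 6.74 in mutants. Maoa, which degrades serotonin, fell by 0.54 (SE 0.11, adjusted p = 0.0179), a call lost without NF17, NFVCT38 or NFVCT153 (adjusted p up to 0.0742).

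Of 17 enteroendocrine transcription factors tested, 8 were called lower and none higher, with a median of -0.68. With the smooth muscle covariate 3 were called and the median was -0.44. Standard errors were wider with it: Rfx6 had -2.78 (SE 0.44) with the covariate and -2.85 (SE 0.29) without. Neurod1, which acts just after Neurog3, held 3 counts over the 8 mutant libraries against 415 in controls, 0.73% of the control level (exact binomial 95% interval 0.15% to 2.15%, adjusted p = 4.98e-07). Lmx1a, a factor of enterochromaffin cells, had 0 counts in mutants and was at least 62.0-fold lower (40.4-fold without NFVCT153, adjusted p = 7.67e-06). Rfx6 fell by 2.85 (SE 0.29, adjusted p = 0.000142), with all animal means of mutants below -1.8 and all of controls above 0.34 log2 CPM. Insm1 fell by 2.68 (SE 0.36, adjusted p = 0.00159), Isl1 by 2.15 (adjusted p = 0.00719) and Myt1 by 1.44 (adjusted p = 0.00719), and the other called members were Pax6 (adjusted p = 0.00441) and Nkx2-2 (adjusted p = 0.00542). The 9 that were not called had changes between -0.68 for St18 and 0.33 for Foxa1; Sox4, Rfx3, Etv1, Foxa2, Pdx1, Hhex and Mnx1 lay between these.

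Outside the hormone lists, Adgrg4 and Afp were nearly absent from mutants, and other genes of secretion fell less. Adgrg4, an adhesion G protein-coupled receptor, had 577 counts in controls and 0 in mutants, at least 190-fold lower (124-fold without NFVCT153, adjusted p = 4.86e-08). Afp, alpha-fetoprotein, held 1786 counts in the control duodena and 2 in the mutant duodena, and 344 and 3 in the ilea (average adjusted p = 2.09e-08). Rimbp2, a scaffold of the secretory active zone, fell by 1.98 (SE 0.24, adjusted p = 0.000749), and Stxbp5l, a syntaxin-binding regulator of exocytosis, by 1.98 (SE 0.28, adjusted p = 0.00236). Of the 19 exocytosis genes, 3 were called lower, the third being Syt13 (-0.77, adjusted p = 0.0178, up to 0.0678 without NF17 or NF29). One was called higher, Syt7 (0.49, adjusted p = 0.0197), and lost its call without NF17, NF32, NFVCT27 or NFVCT38 (adjusted p up to 0.0727). Of 11 sensing genes, the fatty acid receptor Ffar1 (adjusted p = 0.00227) and Trpa1 were called lower. With the smooth muscle covariate no gene of the exocytosis or sensing list was called.

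**Figure D3:**
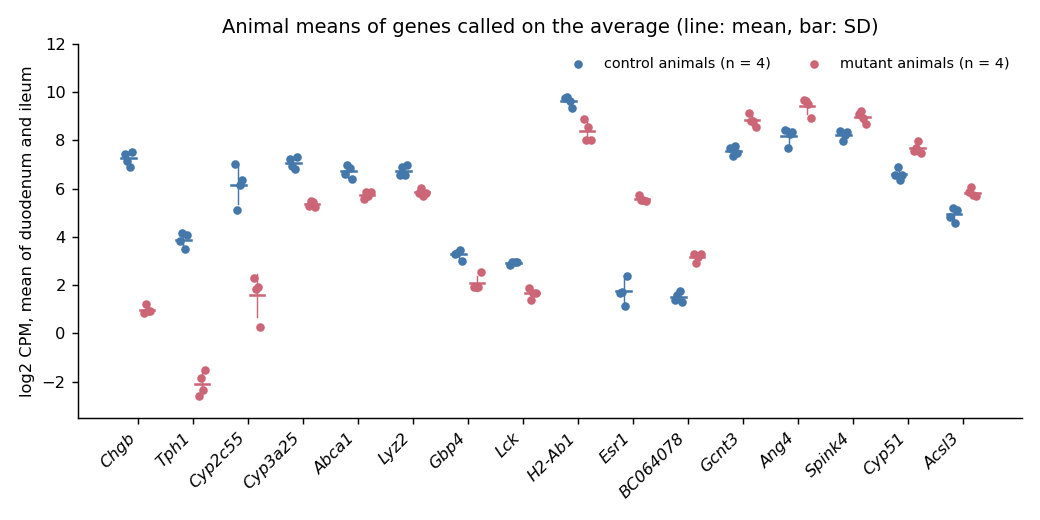
Log2 CPM averaged over duodenum and ileum (vertical axis) in each animal for 16 genes called on the average; points are animals, lines are group means and bars are 1 SD (n = 4 a group). The groups do not overlap for any of the 16 genes, from the granule gene Chgb at the left to the fatty acid activating enzyme Acsl3 at the right. The 16 were picked from genes called on these same means, which favours that.

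Of 24 lymphocyte genes, 13 were called lower on the average, 5 in the duodenum and 6 in the ileum. Over all genes tested 1.88% were called lower on the average, and 0.39% were called in the duodenum and 3.19% in the ileum. The small intestinal epithelium holds many intraepithelial lymphocytes, mostly T cells, which lie between the enterocytes. All 24 genes of the T, NK and intraepithelial lymphocyte list had averaged changes below 0, with a median of -1.13 (-1.23 in the duodenum, -1.14 in the ileum). The median over all genes tested was 0.01. Leaving out an animal gave 7 to 21 calls, with 7 without NF29, NF32 or NFVCT38, and the smooth muscle covariate left 2.

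Lck, the kinase that starts T cell receptor signalling, had animal means of 2.85, 2.96, 2.96 and 2.95 log2 CPM in controls and 1.89, 1.4, 1.67 and 1.66 in mutants. The controls lie within a narrow band and every mutant lies below it. The change was -1.27 (SE 0.14, adjusted p = 0.000261), -1.35 in the duodenum and -1.20 in the ileum. Cd3e, a chain of the receptor complex, fell by 1.74 (SE 0.26, adjusted p = 0.00366), from 2.15, 2.49, 2.67 and 1.76 to 0.79, -0.21, 0.80 and 0.74 log2 CPM. Klrd1, the NK cell receptor CD94, fell by 1.60 (SE 0.20, adjusted p = 0.000919), and Cd3g, another chain of the complex, by 1.1 (SE 0.18, adjusted p = 0.00719). Cd4, the coreceptor of helper T cells, fell by 0.66 (SE 0.10, adjusted p = 0.00307) with control means of 3.86 to 3.94 and mutant means of 3.17 to 3.39. Of the 10 epithelial signals that keep these lymphocytes, none was called by limma, and the member of smallest p was Btnl2 (-0.46, SE 0.12, adjusted p = 0.0619).

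Macrophage and dendritic cell genes had smaller changes. All 14 lay below 0 with a median of -0.41, and 3 were called lower (1 with the smooth muscle covariate). Lyz2, lysozyme of macrophages, had 6.56, 6.90, 6.55 and 6.97 log2 CPM in controls and 5.83, 6.01, 5.70 and 5.83 in mutants (-0.90, SE 0.11, adjusted p = 0.000742). It was called in neither tissue alone (adjusted p = 0.0663 in the duodenum and 0.142 in the ileum), where its changes were -0.88 and -0.93. Adgre1, the macrophage marker F4/80, fell by 0.50 (adjusted p = 0.0227, up to 0.0774 without NF29, NF32 or NF152). C1qb, a complement chain, fell by 0.43 (adjusted p = 0.0339), a call that stayed only without NFVCT27 among the single omissions (adjusted p up to 0.1). Of 12 B and plasma cell genes, none was called by limma, with a median of -0.04, and Ighm had the smallest p (-1.26, SE 0.46, adjusted p = 0.259).

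Antigen presentation and interferon response genes were lower in the same animals. Interferon gamma, a product of activated T and NK cells, is known to induce MHC class II through the master regulator Ciita, as well as MHC class I and guanylate-binding proteins. Of 27 tested genes of the interferon gamma and MHC class I list, all lay below 0 and 15 were called lower, with a median of -0.88. Of 11 MHC class II pathway genes, 6 were called lower (H2-Aa, H2-Ab1, H2-Eb1, H2-DMa, Cd74 and Ciita), with a median of -1.01. Leaving out an animal gave 8 to 20 and 3 to 6 calls, lowest for the first list without NF17, NF32 or NFVCT153 and for the second without NF17, NF29 or NF32, and without NF17 and NFVCT190 together 6 and 0 were called. With the smooth muscle covariate none of either list was called, while the list medians were -0.75 and -1.12.

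H2-Ab1, the beta chain of the class II molecule I-A, had 9.74, 9.78, 9.65 and 9.33 log2 CPM in controls and 8.88, 8.02, 8.58 and 8.02 in mutants. The groups do not overlap, and the change was -1.25 (SE 0.19, adjusted p = 0.00729), although neither tissue alone was called (adjusted p = 0.0851 and 0.061). Ciita fell by 1.33 (SE 0.21, adjusted p = 0.0142) and by similar amounts in the duodenum (-1.36) and the ileum (-1.30); without NFVCT27 its adjusted p was 0.053. H2-Eb1, the beta chain of I-E, fell by 0.98 (SE 0.17, adjusted p = 0.00909). Gbp4, a guanylate-binding protein, had 3.30, 3.34, 3.47 and 2.98 log2 CPM in controls and 1.93, 1.91, 1.91 and 2.54 in mutants (-1.20, SE 0.17, adjusted p = 0.00189). Gbp2 (-0.93, SE 0.11), Gbp5 (-0.85, SE 0.13) and Gbp7 (-0.77, SE 0.14) were also called. Ubd, a ubiquitin-like modifier, had the largest change of this group, -3.68 (SE 0.55, adjusted p = 0.0232); it lost its call in all single omissions other than that of NF152 (adjusted p up to 0.0767), and NF152 had the lowest control value, 3.32 against 5.12 to 5.70 log2 CPM.

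H2-Q10, a class I gene, went the other way. It had 2.02, 1.90, 2.0 and 1.95 log2 CPM in controls and 4.00, 3.33, 3.85 and 3.15 in mutants (1.61, SE 0.17, adjusted p = 0.000249), higher in both tissues. It belongs to a cluster of near-identical copies, so reads could be split among them and the value is uncertain.

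Detoxifying enzymes of the enterocyte formed the other large group that fell. The intestine clears drugs and plant compounds with cytochromes P450, carboxylesterases and conjugating enzymes, several of them induced by the nuclear receptors PXR and CAR. Of 36 xenobiotic genes, 14 were called lower and 2 higher, with a median of -0.51. The genes called lower were Cyp2b10, Cyp2c55, Cyp2c65, Cyp3a11, Cyp3a25, Ces1f, Ces1g, Ces2a, Gstm1, Gstm3, Sult1d1, Abcb1a, Aldh1a1 and Ephx1. With the smooth muscle covariate 6 were called lower, and leaving out an animal gave 7 to 11, with 7 without NF29 or NFVCT153. Many of these families hold close copies, so that counts may be shared between them.

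Cyp3a25, a cytochrome of the main drug-metabolising family, had the smallest p of these enzymes. Its animal means were 7.23, 6.95, 6.82 and 7.33 log2 CPM in controls and 5.28, 5.49, 5.44 and 5.25 in mutants. The mutants lie within a narrow band that is clear of the controls, and the change was -1.72 (SE 0.11, adjusted p = 1.41e-06), -1.68 in the duodenum and -1.76 in the ileum. Neither tissue alone passed (adjusted p = 0.0851 and 0.114): in the libraries, Cyp3a25 ranged from 147 to 309 CPM in control and 40.8 to 96.8 CPM in mutant duodena, and from 49.1 to 141 and 15.4 to 43.3 CPM in the ilea. NF29 was the highest control in the duodenum and the lowest in the ileum, and NFVCT27 was so among the mutants. Such opposite deviations cancel in the animal mean, and the SE was 0.32 in the duodenum and 0.45 in the ileum.

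Cyp2c55 fell most among these enzymes. It had 7.03, 5.12, 6.17 and 6.37 log2 CPM in controls and 2.30, 1.82, 1.92 and 0.28 in mutants (-4.59, SE 0.58, adjusted p = 0.0144). In the ileum of NF29 it was 9.38 CPM where the other controls had 80.5 to 139 CPM, and all mutant ilea had 0.696 to 2.93 CPM. Ces2a, a carboxylesterase, had 134, 266, 102 and 117 CPM in control and 47.8, 47.3, 65.0 and 25.9 CPM in mutant duodena, and the ilea did not overlap either (86.9 to 135 and 33.9 to 53.5 CPM; average -1.51, SE 0.14, adjusted p = 0.000174). Ces1f fell by 1.07 (SE 0.16, adjusted p = 0.00719), mostly in the ileum (-1.67, against -0.47 in the duodenum), and Ces2g, outside the list, by 0.77 (SE 0.13, adjusted p = 0.00625). Ephx1, the epoxide hydrolase, had an average of -0.68 that no tissue showed: it was -1.38 in the duodenum and 0.01 in the ileum. Its adjusted p in the fit with the replicate block was 0.0817.

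Other enterocyte genes that fell handle fat and sterols. Abca1, which exports cholesterol to HDL, had 6.62, 6.98, 6.85 and 6.41 log2 CPM in controls and 5.56, 5.86, 5.70 and 5.87 in mutants (-0.97, SE 0.12, adjusted p = 0.000829), the only call among 12 sterol uptake and efflux genes (none with the smooth muscle covariate). Fabp2, the intestinal fatty acid-binding protein, had 10.3, 10.6, 9.74 and 10.6 log2 CPM in controls and 9.33, 9.28, 9.01 and 9.31 in mutants (-1.07, SE 0.18, adjusted p = 0.00729). It was called in neither tissue alone, with -1.08 in the duodenum and -1.06 in the ileum. In the same list of 20 fat uptake genes, where the smooth muscle covariate left no call, Acsl3, an enzyme that activates fatty acids, rose by 0.91 (SE 0.13, adjusted p = 0.0032), from 4.58 to 5.21 log2 CPM in controls to 5.68 to 6.05 in mutants. Fabp6, the ileal bile acid-binding protein, fell by 1.36 (SE 0.26, adjusted p = 0.0339). It lost its call without NF17, NF152, NFVCT27, NFVCT153 or NFVCT190 (adjusted p up to 0.0995) and in the fit with the replicate block (adjusted p = 0.391). Mme, the brush border peptidase neprilysin, fell by 0.68 (SE 0.12, adjusted p = 0.00909), the only call among 20 peptidases and amino acid transporters. Mme was not called in the fit with the replicate block (adjusted p = 0.204) or in either edgeR fit. With the smooth muscle covariate 2 genes of the list were called lower.

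Of 25 cholesterol synthesis genes and SREBP2 targets, 9 were called higher and none lower. The pathway is switched on by SREBP2, the product of Srebf2, when cell sterol is low. All 25 had averaged changes above 0, and those called included Acat2, Mvk, Pmvk, Lss, Cyp51, Msmo1, Nsdhl and Srebf2. The median was 0.63, with 0.76 in the duodenum and 0.41 in the ileum; the test within the duodenum called 6 members and that within the ileum none. Leaving out an animal gave 4 to 13 calls, with 4 without NF17 or NF32. The smooth muscle covariate left none with a median of 0.53, the fit with the replicate block called 17 and counts summed per animal 2.

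Cyp51, the lanosterol demethylase, had 6.56, 6.89, 6.37 and 6.55 log2 CPM in controls and 7.55, 7.68, 7.99 and 7.47 in mutants (1.08, SE 0.13, adjusted p = 0.000693). Its duodenal libraries were 49.4, 54.3, 51.4 and 42.2 CPM in controls and 138, 139, 187 and 110 CPM in mutants, and its ileal ones 133 to 260 and 255 to 344 CPM. The duodenal groups stand well apart and the ileal groups overlap. Msmo1, the next demethylase, rose by 0.88 (SE 0.15, adjusted p = 0.00792), Nsdhl by 0.63 (SE 0.12, adjusted p = 0.0114) and Pmvk, a kinase of the mevalonate steps, by 0.62 (SE 0.12, adjusted p = 0.0111).

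Because these genes moved together, their promoters were read for 2 short motifs in the RefSeq table of build GRCm38.p6, over the 250 bases before each start. SREBPs bind the sterol element, whose core is spelled TCACCCCAC, and they are known to act with NF-Y, which binds CCAAT; the second motif was added after the first had been counted. The exact core was found on either strand in 163 of 32851 promoters (0.496%), in 1 of the 20 promoters of 17 genes of the list (Hmgcs1) and in none of the 9 promoters of 8 called genes. CCAAT or its reverse ATTGG was found in 33.8% of all promoters and in 16 of the 20, covering 16 of the 17 genes. A match is a description of the letters and not a bound site. The promoters of the 2 called genes of smallest p, Cyp51 and Msmo1, are shown with CCAAT in capitals, and that of Hmgcs1 with both motifs in capitals. Hmgcs1 itself had a change of 0.69 (SE 0.18) that was not called (adjusted p = 0.0682). They lie at chr5:4104698-4104947 on the minus strand, chr8:64733579-64733828 on the minus strand and chr13:119690101-119690350 on the plus strand.
Cyp51: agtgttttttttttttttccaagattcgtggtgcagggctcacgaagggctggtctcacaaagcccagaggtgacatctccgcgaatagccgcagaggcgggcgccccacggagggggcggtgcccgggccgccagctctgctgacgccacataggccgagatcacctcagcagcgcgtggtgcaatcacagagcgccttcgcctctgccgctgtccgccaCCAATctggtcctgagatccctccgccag
Msmo1: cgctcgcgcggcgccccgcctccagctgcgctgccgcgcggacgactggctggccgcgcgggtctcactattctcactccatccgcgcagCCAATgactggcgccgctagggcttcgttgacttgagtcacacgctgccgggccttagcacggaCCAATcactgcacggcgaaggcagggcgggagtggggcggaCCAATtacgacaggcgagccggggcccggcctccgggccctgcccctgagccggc
Hmgcs1: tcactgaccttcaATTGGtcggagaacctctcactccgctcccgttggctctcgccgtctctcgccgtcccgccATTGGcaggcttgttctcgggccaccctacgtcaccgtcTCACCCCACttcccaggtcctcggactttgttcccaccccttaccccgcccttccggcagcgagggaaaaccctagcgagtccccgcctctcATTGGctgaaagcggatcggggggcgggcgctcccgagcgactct

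Some genes of fatty acid synthesis and sugar handling were called higher. All 17 fatty acid synthesis genes lay above 0 with a median of 0.45, and 4 were called higher: Fasn, the fatty acid synthase (0.70), Acly (0.44) and Acss2 (0.46), which supply acetyl-CoA, and Mlxipl, the sugar-sensing factor ChREBP (0.48). Each of these 4 lost its call without some single animal, among them NFVCT153 for all 4, without which none of the list was called (adjusted p up to 0.1 for Acly, 0.0935 for Fasn, 0.0814 for Acss2 and 0.0806 for Mlxipl). Of 15 carbohydrate genes, 4 were called higher, among them Sis, Slc2a2 and Slc2a5, and 1 lower (Slc5a4b, -1.1, SE 0.18, adjusted p = 0.00792). The median of this list was 0.12 in the duodenum and 0.98 in the ileum. With the smooth muscle covariate none of the carbohydrate genes was called higher and 3 were called lower. The list median stayed above 0 (0.28 with the covariate, 0.48 without). No fatty acid synthesis gene was called with it. In the fit with the replicate block fatty acid synthesis had 7 calls (0 on counts summed per animal), and Slc5a4b was not called (adjusted p = 0.27).

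Sis, sucrase-isomaltase, shows how an ileal change carries the average. It had 12.5, 12.4, 12.5 and 12.7 log2 CPM in controls and 13.5, 13.6, 13.7 and 13.6 in mutants (1.1, SE 0.14, adjusted p = 0.000901). In the ileum it rose from 3681 to 5907 CPM in controls to 16970 to 21010 CPM in mutants, while the duodenal groups overlapped (6354 to 8043 and 7352 to 10440 CPM). The ileal minus duodenal change was 1.71 (SE 0.25) with an unadjusted p of 0.000102 and an adjusted p of 0.166. Slc2a2, the glucose transporter GLUT2, had -0.05 in the duodenum and 1.4 in the ileum, and Slc2a5, the fructose transporter GLUT5, 0.21 and 1.07. In the fit with the replicate block their adjusted p-values were 0.0609 and 0.0894. Pkm, the only call among 15 glycolysis genes, had 0.28 and 1.22 (average 0.75, SE 0.14, adjusted p = 0.0117). The glycolysis list had 6 calls in the fit with the replicate block and none with the smooth muscle covariate.

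**Figure D4:**
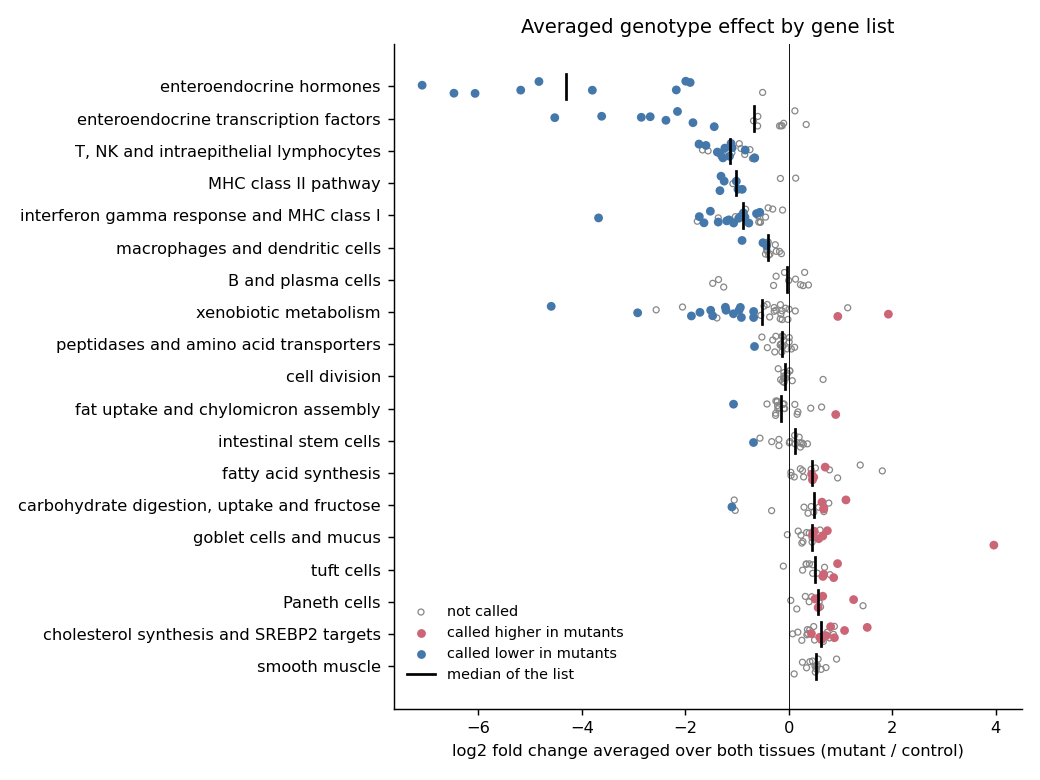
Averaged log2 fold change of mutants against controls (horizontal axis) of the tested members of 19 gene lists (rows); filled points were called, open points were not, and the black line is the median of the list. Hormones have the lowest median (-4.31), lymphocyte and interferon genes lie below 0, and the cholesterol, fatty acid and Paneth lists lie above 0. The 14 smooth muscle genes also lie above 0, with none called on the average and 9 called in the ileum.

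Of the other secretory lineages, 6 goblet, 4 Paneth and 4 tuft cell genes were called higher and none lower. Paneth cells release antimicrobial peptides at the crypt base, goblet cells make mucus and tuft cells sense parasites, and the secretory lineages share Atoh1 as an early factor. Atoh1 rose by 0.47 (SE 0.09, adjusted p = 0.01), from 4.32, 4.39, 4.24 and 4.34 log2 CPM to 4.82, 4.73, 4.91 and 4.71, the only call among 13 Notch and secretory fate genes. Of 17 goblet genes 6 were called higher (Spdef, Bcas1, Retnlb, Spink4, Galnt12 and Ern2; median 0.45), of 14 Paneth genes 4 (Ang4, Mmp7, Defa22 and Defa26; median 0.56) and of 14 tuft genes 4 (Trpm5, Alox5, Avil and Sh2d6; median 0.51). The smooth muscle covariate left no call in any of the 3, with medians of 0.40, 0.43 and 0.32. Leaving out an animal gave 4 to 9 goblet calls (fewest without NF17 or NF32), 2 to 6 Paneth calls (fewest without NF29 or NFVCT38) and 1 to 6 tuft calls (fewest without NF17 or NFVCT38).

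Ang4, a microbicidal ribonuclease, had 8.43, 7.71, 8.28 and 8.33 log2 CPM in controls and 9.66, 9.63, 9.52 and 8.94 in mutants. All mutants lie above all controls, and the change was 1.25 (SE 0.19, adjusted p = 0.00724). Mmp7, the protease that activates defensins, rose by 0.66 (SE 0.13, adjusted p = 0.0129). Defa22 and Defa26 are defensins with many near-identical copies; Defa22 lost its call without every animal but NF17 (adjusted p up to 0.113), and Defa26 without NF29, NF32 or NFVCT38 (adjusted p up to 0.0607).

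Spink4, a goblet cell peptide, had 8.39, 7.99, 8.22 and 8.36 log2 CPM in controls and 9.08, 9.23, 8.93 and 8.70 in mutants (0.74, SE 0.13, adjusted p = 0.00779), with 0.74 in the duodenum and 0.75 in the ileum. Bcas1 rose by 0.65 (SE 0.10, adjusted p = 0.00307) and Galnt12, a mucin-type glycosyltransferase, by 0.49 (SE 0.09, adjusted p = 0.00989). Retnlb, the goblet cell product RELM-beta, rose most, by 3.96 (SE 0.52, adjusted p = 0.0114). In the ileum its controls had 3.94, 2.86, 2.91 and 1.19 CPM and its mutants 115, 83.9, 67.0 and 33.3 CPM, and in the duodenum 0 to 0.742 and 1.76 to 5.68 CPM. Both tissues are thus without overlap at levels that differ widely between them.

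Avil, an actin-binding protein of tuft cells, had 3.44, 3.23, 3.70 and 3.44 log2 CPM in controls and 4.43, 4.33, 4.58 and 3.94 in mutants (0.87, SE 0.14, adjusted p = 0.00599). Trpm5, the taste channel of these cells, rose by 0.66 (adjusted p = 0.0164, up to 0.0616 without NF17 or NFVCT38). Alox5 and Sh2d6 rose by 0.94 and 0.67 (adjusted p = 0.0315 and 0.0281); the first kept its call only without NFVCT190, and the second lost it without NF17, NF32, NFVCT27, NFVCT38 or NFVCT153 (adjusted p up to 0.0965 and 0.0874).

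Olfm4, a marker of intestinal stem cells, was the only call among 15 stem cell genes (-0.68, SE 0.13, adjusted p = 0.0132), with -0.13 in the duodenum and -1.24 in the ileum. The list as a whole did not fall: 10 of the 15 genes lay above 0 and 5 below, with a median of 0.11. Of 16 cell division genes none was called by limma, with a median of -0.08, and Rrm2 had the smallest p (0.66, SE 0.16, adjusted p = 0.0587).

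The antimicrobial lectins Reg3b and Reg3g were the only calls among 16 antimicrobial and barrier genes (none with the smooth muscle covariate). Reg3b had 12.4, 11.5, 12.4 and 11.1 log2 CPM in controls and 13.8, 14.1, 13.7 and 13.9 in mutants (2.03, SE 0.28, adjusted p = 0.00323). Its duodenal controls split into 2 levels, 3451 and 4136 CPM in NF17 and NF32 and 449 and 508 CPM in NF29 and NF152, all below the 8431 to 14780 CPM of mutants. In the ileum the groups overlap (7320 to 18880 CPM in controls, 13110 to 26860 CPM in mutants), and neither tissue alone was called (adjusted p = 0.191 and 0.189). The fit with the replicate block called neither Reg3b (adjusted p = 0.0913) nor Reg3g (0.182).

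Outside the lists, Esr1 had the smallest p of the genes called higher. Esr1 encodes estrogen receptor alpha, and CreERT2 carries a domain of an estrogen receptor; whether reads of the transgene were counted as Esr1 was not tested. It had 1.69, 1.73, 1.14 and 2.39 log2 CPM in controls and 5.74, 5.51, 5.52 and 5.51 in mutants. The mutants share nearly the same level, and the change was 3.83 (SE 0.21, adjusted p = 6.19e-06), 3.96 in the duodenum and 3.70 in the ileum. In the libraries, control values were 1.39 to 6.12 CPM and mutant values 36.2 to 57.1 CPM.

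BC064078 had 1.4, 1.61, 1.77 and 1.32 log2 CPM in controls and 3.29, 2.90, 3.16 and 3.28 in mutants (1.64, SE 0.15, adjusted p = 4.46e-05). Gcnt3, a mucin-type glycosyltransferase, had 7.68, 7.36, 7.78 and 7.48 in controls and 9.15, 8.80, 8.82 and 8.56 in mutants (1.26, SE 0.13, adjusted p = 0.000172), and its libraries did not overlap in the duodenum (140 to 223 and 248 to 417 CPM) or in the ileum (175 to 268 and 487 to 837 CPM). Tacr1, the receptor of substance P, rose by 0.95 (SE 0.13, adjusted p = 0.00189), the only call among 13 receptors for gut hormones. Nmu, neuromedin U, rose by 1.62 (SE 0.29, adjusted p = 0.00896) and Stc1, stanniocalcin, by 1.46 (SE 0.22, adjusted p = 0.00319). Igfbp2, an IGF-binding protein, rose by 1.73 (SE 0.36, adjusted p = 0.0185) and lost its call without NFVCT27, NFVCT38 or NFVCT153 (adjusted p up to 0.0532).

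Among the 229 genes called only on the average were some of low variance in the animal means. Lama3, a laminin chain of the epithelial basement membrane, had 4.84, 4.75, 4.78 and 4.69 log2 CPM in controls and 5.72, 5.20, 5.27 and 5.39 in mutants (0.63, SE 0.11, adjusted p = 0.00739), against adjusted p-values of 0.234 and 0.237 in the tissues. Slc12a8 (0.52), Nipsnap2 (0.45) and Slc7a4 (0.62) rose in the same way. Flvcr1, a heme and choline transporter, fell by 0.64 (SE 0.10, adjusted p = 0.00437) and Gpr155 by 0.90 (SE 0.14, adjusted p = 0.00615). In the fit with the replicate block Flvcr1 had an adjusted p of 0.201. Their changes had the same sign in both tissues, though not always the same size: Flvcr1 had -0.89 in the duodenum and -0.39 in the ileum, Gpr155 -1.16 and -0.64, and Nipsnap2 0.44 and 0.47. A low variance of animal means can come from opposite deviations of an animal's 2 libraries. For Flvcr1, NF29 was the highest control in the duodenum (128.5 CPM) and the lowest in the ileum (32.3 CPM). Its SE was 0.33 in the duodenum and 0.22 in the ileum.

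For some called genes the average hides one-sided tissue effects or signs that differ between the tissues. The test of the difference, on each animal's ileal minus duodenal value, called 2 genes (0.0126% of those tested). Its unadjusted p was under 0.05 for 911 of the 15882 genes tested and for 85 of the 494 called on the average. One of the 2, Trpa1, an irritant-sensing channel of enterochromaffin cells, was also called on the average (-1.66, SE 0.26, adjusted p = 0.00455). It had 9.62, 9.81, 7.24 and 12.5 CPM in control and 1.60, 0.70, 0.724 and 0.441 CPM in mutant duodena. In the ileum it had 2.12, 1.52, 2.18 and 3.87 CPM in controls and 3.63, 2.33, 1.46 and 3.0 CPM in mutants, so the loss was seen in the duodenum and the ileal groups overlap. The difference was 3.52 (SE 0.36, adjusted p = 0.0458); its adjusted p was above 0.05 without any single animal (0.0629 to 0.299) and under 0.05 in edgeR with the replicate block (0.00203). The other gene, Pla2g4c, a phospholipase A2, had 16.1, 44.1, 17.9 and 22.1 CPM in control and 3393, 2354, 2357 and 606 CPM in mutant ilea, but 0.653 to 5.89 and 0.991 to 4.46 CPM in the duodena. It is named after its values were seen, and on the average it was not called (adjusted p = 0.0549); its duodenal groups overlap. Its difference of 6.43 (SE 0.66, adjusted p = 0.0458) also missed the threshold without any single animal (adjusted p 0.0629 to 0.299).

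The 6 other called genes of opposite sign in the tissues were Mgat4c, Ephx1, Slc2a2, Mlxipl, Fyb2 and Ces2b, of which Fyb2 and Ces2b are named here after their values were seen. An opposite sign need not be an opposite effect. Mgat4c and Ephx1 lay near 0 in the ileum (-0.05 and 0.01) and Slc2a2 in the duodenum (-0.05), and none of these was called there. Mgat4c, an N-glycan branching enzyme, had 2.53, 1.96, 4.92 and 1.73 CPM in control and 16.6, 19.2, 21.8 and 13.9 CPM in mutant duodena, but 583 to 794 and 543 to 688 CPM in the ilea. Its averaged log2 change of 1.34 (SE 0.12, adjusted p = 2.5e-05) came from the duodenum (2.73), where its level was low, and the ileum had -0.05. On counts summed per animal, where the ileum weighs most, the value was -0.32. Cfap61, a protein of cilia, was the reverse case: 0 to 0.54 CPM in all duodena, 0.0425 to 0.363 CPM in control ilea and 2.81 to 3.71 CPM in mutant ilea (average 1.85, SE 0.34, adjusted p = 0.011). The differences of Mgat4c (-2.78, SE 0.52) and Cfap61 (3.66, SE 0.74) had unadjusted p-values of 0.000497 and 0.00091 and did not pass the adjustment (0.297 and 0.309).

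Several lists had no call on the average. None was called by limma among 17 fatty acid oxidation and PPARalpha targets, 16 circadian clock genes, 12 endoplasmic reticulum stress genes, 10 iron genes, 8 villus tip genes and 14 heat shock and immediate early genes. The members of smallest p were Ehhadh (-0.33, adjusted p = 0.14) for oxidation, Ciart (0.84, adjusted p = 0.118) for the clock, Herpud1 (0.37, adjusted p = 0.159) for stress and Hsph1 (-0.78, adjusted p = 0.255) for heat shock. Of 8 proximal identity genes none was called by limma either, but 7 lay below 0, and their mean level was 6.40 to 6.54 log2 CPM in the animal means of controls and 6.03 to 6.32 in mutants, without overlap. In the duodenum that level was 7.79 ± 0.36 in controls and 7.20 ± 0.16 in mutants (SD, n = 4 each), also without overlap, and in the ileum 5.12 and 5.06 with overlap. The heat shock list had a mean level of 4.05 log2 CPM in both groups (exact permutation p = 0.971). Epithelial markers had a mean level of 9.23 ± 0.11 in controls and 9.39 ± 0.12 in mutants (SD, n = 4 each, exact permutation p = 0.114), with 1 call of 9, Krt18 (0.67, adjusted p = 0.0156; 0.0545 without NFVCT38). Fibroblast and endothelial genes had 5.11 and 5.16 (exact permutation p = 0.571), enteric glia 2.03 and 2.18 (exact permutation p = 0.114), acinar genes 9.07 and 8.24 (exact permutation p = 0.4) and islet genes -0.32 and -0.23 (exact permutation p = 0.943), with no call in these 4 lists. All 17 acinar genes lay below 0 on the average (median -0.795), so genes of a list can share a sign without any call.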

How the data were processed

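Total RNA libraries (stranded, ribosomal RNA removed, PCR-amplified, per the labels' protocols) of 16 tissue samples were compared. The authors deposited raw read counts for 55359 Ensembl genes. The submitters' processing notes list STAR 2.5.3a, HTSeq 0.6.1p1, Bowtie2 2.2.8, cutadapt 1.10, bcl2fastq 2.20.0.422 and the build mm39 without roles; for strand setting and annotation, none given in the sources used here. Symbols (52083 identifiers matched, 98.3% of counts) came from a gene name table. Promoters are from RefSeq on GRCm38.p6; other coordinates are not given.

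Counts were filtered with edgeR 4.0.16 (filterByExpr on 4 groups), TMM-scaled over the 16 libraries, turned into log2 CPM (prior count 2), averaged per animal and tested with limma 3.58.1 in R 4.3.3 (trend and robust variance). Log2 changes therefore understate those of low genes. Benjamini-Hochberg adjustment ran over 15882 genes, with calls under 0.05; every adjusted p is from this fit unless another is named. The same test was run on ileal minus duodenal values and within each tissue. Alternatives were edgeR, DESeq2 1.42.0, limma-voom, other scalings, filters, prior counts and covariates, and each animal left out. The code was tested on simulated data.

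Same-animal libraries deviated together (correlations of 0.127 to 0.327 in the 8 animals). For NF32 (0.191) and NFVCT190 (0.145) the highest correlation with a library of another animal was larger, 0.218. The animal names give the pairing, and a block applies only to fits of single libraries, since each animal has 1 genotype. No 2 libraries of a group agreed within sampling noise. Nothing states litters, so p-values measure the spread between these animals.

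Scores are the mean log2 CPM of a list. Bounds use a floor of 3 counts over a group and intervals are exact binomial (95%); both cover counting error only. No fitted change is given where a group held at most 3 counts. Genes named are Neurog3; with mean CPM of at least 1, the 12 largest changes each way without overlap of animal means and the 12 largest in both tissues; the 8 of smallest p each way called in no single tissue; genes also called on the difference; up to 4 called members of each of 47 lists (or the one of smallest p); and all hormone and transcription factor genes. Predicted genes were counted, not named, outside the lists. Members and lists were chosen with earlier results of these data known. Some items that the rule names are not reported here.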

Additional observations from a re-analysis of the deposited data

Results flagged for a closer look

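Groups of 4 animals were searched for one animal far from the other 3 (its gap to the nearest over the whole range above the 95% critical value) in 300 groups of named genes and list levels, and 21 had one; chance alone flags about 1 in 20. Mutant NFVCT190 stood apart in 7: Stxbp5l (-0.539 log2 CPM), Slc2a5 (7.14), Ces2a (5.07), Gbp4 (2.54), Adgre1 (3.88), Alox5 (2.27) and Foxa1 (3.59). Control NF32 stood apart for Igfbp2 (-2.33), Mgat4c (5.79), Ephx1 (4.92) and Aldh1a1 (7.69). Control NF152 did so for Ffar1 (0.464), H2-Aa (9.73) and the heat shock and immediate early list (3.85), NF17 for Lck (2.85) and NF29 for the macrophage and dendritic cell list (4.35). Mutant NFVCT153 stood apart for Fabp2 (9.01) and Msmo1 (7.97), NFVCT38 for Neurod1 (-2.20, the only mutant with counts) and Cd3e (-0.205), and NFVCT27 for Esr1 (5.74).

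The difference between the tissues passed the test for Trpa1, with an ileal minus duodenal log2 change of 3.52, and for Pla2g4c, a phospholipase outside the rule for named genes, with 6.43 (adjusted p = 0.0458 for each). Pla2g4c missed the threshold on the average (adjusted p = 0.0549).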

How the results depend on the processing

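The sign of the averaged change was kept by all of the 494 genes tested under each alternative, except that 490 of 492 kept it on counts summed per animal. Counts of genes called higher and lower moved with the test. The smooth muscle covariate left 12 higher and 49 lower (50 of the 61 among the 494). edgeR on 16 libraries taken as independent called 431 higher, edgeR on summed counts 78 and 167, DESeq2 626 and 595, and limma without the trend (added after seeing the data) 89 and 190. The fit with the replicate block (limma-voom) called 323 higher. Leaving out one animal gave 93 to 298 higher and 167 to 302 lower, and leaving out NF17 and NFVCT190 (added after seeing the data) 156 higher and 171 lower. The acinar covariate gave 145 and 230. For the difference between tissues, no filter and a prior count of 0.5 gave 0 calls, edgeR 7 without and 16 with the replicate block, and leaving out one animal 0 to 1. Without a filter 40 genes were called in the duodenum and 94 in the ileum; leaving out one animal gave 28 to 64 and 263 to 449. Of 112 called named genes, 87 kept their call in every omission of one animal.

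Values that changed sign were, with the smooth muscle covariate, Try4 (0.902), Iapp (0.599), Sox4 (0.0195) and Rfx3 (0.176); on summed counts, Mgat4c (-0.32), Defa22 (-0.21) and Iapp (0.43); without NFVCT153, Iapp (0.102, with -1.06 to 0.102 over the omissions of one animal); without NFVCT190, Foxa2 (-0.0206, with -0.0206 to 0.213); and without NF17 and NFVCT190, Cdh19 (-0.0329). Mgat4c and Defa22 alone among these were called on the average; the causes were not tested. Depth limits the genes at 0 counts in mutants, for which only bounds can be given.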
